A study of Mus musculus with 6 samples.

Results

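The 10 imprinted growth regulators described here were chosen by name, and the transcript rows of each gene were summed. They are Igf2 and H19, Dlk1 with Meg3, Rian and Mirg, Cdkn1c, Grb10, Peg3 and Plagl1. Values were analysed for 8 of the 10 genes, and Meg3 and Rian are not analysed here. The table lists 26191 genes, and 13260 of them reached 1 FPKM in 3 or more of the 6 libraries and were tested, all 8 members included. FPKM is a fragment count divided by transcript length and library total, so levels can be compared between genes. Between libraries it compares shares of a total, of which erythroid marker genes took between 10.8% and 23.5% here.

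The libraries came from whole mouse hearts at embryonic day 12, with 3 control and 3 Mrps5 mutant replicates, each replicate being a pool of hearts and the controls littermates of the mutants. Both groups carried 2 floxed alleles of Mrps5, which encodes a protein of the mitochondrial ribosome. Controls (Mrps5 fl/fl) lacked Cre, and mutants (Mrps5 fl/fl; cTNT-Cre) carried a Cre transgene under the troponin T promoter, which acts in cardiomyocytes and not in the other cells of the heart. A figure legend of the study gives the mutants 1 floxed and 1 wild-type allele instead, and its text places the hearts slightly later in gestation than the labels do.

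Imprinted genes are transcribed mainly from the copy inherited from one parent, and the choice is set by DNA methylation laid down in the germ line. Several imprinted loci pair a protein-coding gene expressed from one parental copy with a noncoding RNA expressed from the other. Many of the paternally expressed proteins promote fetal growth and many of the maternally expressed ones restrain it. The comparison asked whether the RNA of these genes, coding and noncoding, differed between mutant and control hearts.

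The noncoding members H19 and Mirg are also host transcripts of microRNAs, and the Igf2 gene holds one in an intron. The mature sequences are shown because they are what is cut from these RNAs, and because the FPKM of the hosts reported here does not measure them. Sequences are from RefSeq on GRCm38.p6, written 5′ to 3′, with the seed (bases 2 to 8) in capitals. The miR-675 hairpin lies in an exon of H19, with miR-675-5p at chr7:142577112-142577133 and miR-675-3p at chr7:142577078-142577099, and miR-483-5p of Igf2 lies at chr7:142654968-142654989, all on the minus strand.
mmu-miR-675-5p: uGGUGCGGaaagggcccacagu
mmu-miR-675-3p: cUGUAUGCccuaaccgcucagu
mmu-miR-483-5p: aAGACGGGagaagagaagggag
mmu-miR-483-3p: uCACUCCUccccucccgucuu
Mirg holds 14 hairpins with 26 mature microRNAs on the plus strand of chromosome 12. One seed, GGUUGCC, was shared by a pair of them, and every other seed of these hosts occurred once. The pair is shown with miR-134-5p and miR-410-3p, which are among the better known of the cluster.
mmu-miR-453: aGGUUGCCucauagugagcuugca
mmu-miR-496a-5p: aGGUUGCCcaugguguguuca
mmu-miR-134-5p: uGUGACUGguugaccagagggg
mmu-miR-410-3p: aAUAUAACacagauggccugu

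The targeted gene was examined first. Mrps5 was at 9.65, 11.4 and 10.4 FPKM in controls 1, 2 and 3 and at 5.28 and 7.41 in mutants 1 and 2, whereas the library labelled mutant 3 held 10.4 FPKM, within the control range. The log2 fold change of Mrps5 was -0.44 (standard error 0.19, adjusted p = 0.338 by limma with Benjamini-Hochberg adjustment), -0.66 without that library and -0.23 without mutant 1. Erythroid marker genes took between 10.8% and 23.5% of the summed FPKM, with mutants 1 and 3 highest. Of 14 tested erythroid markers 6 were higher at an unadjusted p under 0.05. Of all genes tested, 5.57% were higher and 9.43% lower at that line. The summed FPKM of 10 cardiomyocyte markers was 6560 to 7163 in mutants and 7271 to 8650 in controls, with 5 of the 10 lower and 1 higher at that line. Smooth muscle markers summed to 457 to 656 FPKM in mutants and 633 to 717 FPKM in controls. Of these markers 3 of 5 were lower at that line (Myocd at -0.49, Cnn1 at -0.28 and Tagln at -0.25). Of 7 epicardial markers 1, Krt19, was higher (0.89, unadjusted p = 0.00297 by limma). That is 14.3% of the list beside 15.0% of all genes, and the other epicardial markers differed by -0.08 to 0.15. Of 8 endothelial markers 1 was higher (Emcn, 0.27) and 1 lower (Npr3, -0.25) at that line, and of 9 mesenchymal markers 0 passed it. Defining markers of cardiomyocytes, such as Tnnt2 and Myl2, were abundant in every library. Their log2 fold changes were -0.60 and -0.45 (adjusted p = 0.0952 and 0.231 by limma). Of 5 skeletal muscle markers 0 passed the filter. Fewer cells of a type and less RNA per cell cannot be told apart in these bulk libraries.

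None of the 8 members passed an adjusted p of 0.05 by limma with Benjamini-Hochberg adjustment, where 0.0830% of all genes tested did, which is 11 genes. Members with a log2 fold change above 0 numbered 3, with Grb10 at 0.00 counted among them although its sign turned under 6 of 14 alternatives, and those below 0 numbered 5, and the median log2 fold change was -0.11 beside -0.02 over all genes. One member, Plagl1, had an unadjusted p under 0.05 (1 of 8, or 12.5%, beside 15.0% of all genes), and it was lower in mutants, as 9.43% of all genes were at that line and 5.57% were higher. Plagl1 was also the one member whose mutant and control values did not overlap, which 20.8% of all genes showed. Without the library labelled mutant 3 no member had an adjusted p under 0.05, beside 2.04% of all genes, and 2 members (Cdkn1c and Plagl1) had an unadjusted p under 0.05, beside 15.2%. Over the members, log2 fold changes ranged from -0.43 for Igf2 to 0.29 for Dlk1, given as differences of log2(FPKM + 1), a scale on which changes of weakly expressed genes such as Dlk1 and Mirg look smaller than they are.

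**Figure D1:**
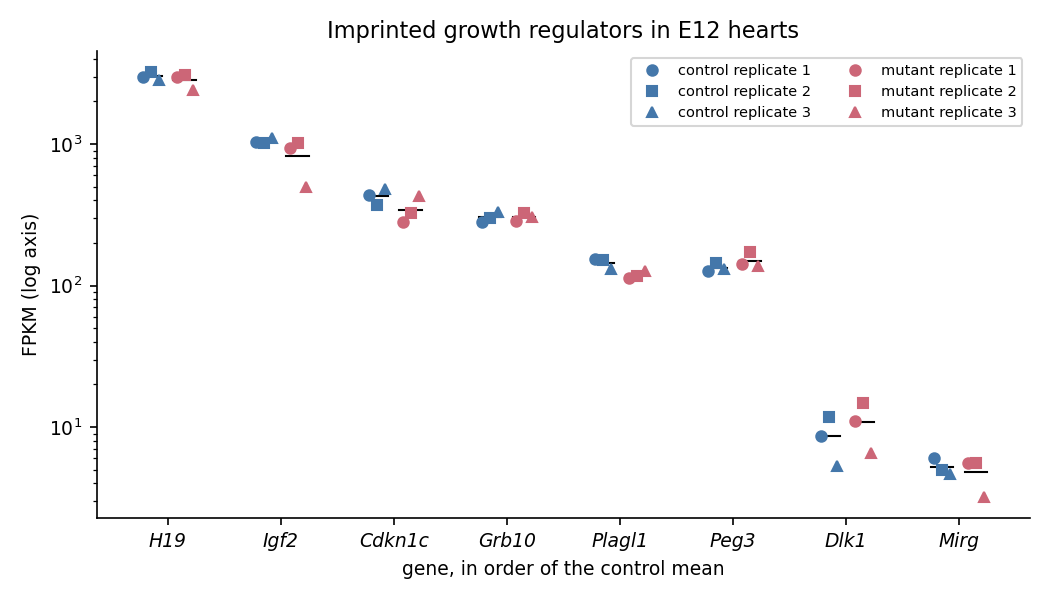
FPKM (log axis) of the 8 imprinted growth regulators in each of the 3 control (blue) and 3 mutant (red) libraries, with marker shape for the replicate number and a black line at each group mean. H19 lies highest, with a control mean of 3004 FPKM, Dlk1 and Mirg lie lowest, and mutant 3 lies below the other libraries for Igf2, H19 and Mirg.

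The levels of the members spanned a wide range. H19, a noncoding RNA of the maternal copy that is abundant in fetal mesoderm, ranked 17 of 26191 genes by mean FPKM, and Igf2, the paternally expressed insulin-like growth factor that drives fetal growth, ranked 37. Cdkn1c and Grb10 followed at ranks 148 and 190, and Peg3 and Plagl1 at 347 and 376. Dlk1 at 6417 and Mirg at 9036 were far lower. Neighbours in this order did not overlap in controls except Plagl1 with Peg3 and Dlk1 with Mirg, and in mutants the pair that overlapped was Cdkn1c with Grb10. In mutants every Peg3 value lay above every Plagl1 value. H19 alone accounted for 0.475% to 0.691% of the summed FPKM of a library.

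H19 was at 2955, 3232 and 2823 FPKM in controls 1, 2 and 3 and at 2982, 3092 and 2400 FPKM in mutants 1, 2 and 3. Mutants 1 and 2 lay inside the control range and mutant 3 below it. The means were 3004 ± 209 (SD, n = 3) and 2825 ± 372 FPKM (SD, n = 3). In log2 terms the difference was -0.09 (95% interval -0.46 to 0.27, standard error 0.16, adjusted p = 0.822 by limma). Without mutant 3 it was 0.02.

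Igf2 was at 1035, 1015 and 1112 FPKM in controls 1, 2 and 3 and at 943, 1022 and 497 FPKM in mutants 1, 2 and 3. Mutant 1 lay just below the controls, mutant 2 among them, and mutant 3 at 47.2% of the control mean. The means were 1054 ± 51.3 (SD, n = 3) in controls and 821 ± 283 FPKM (SD, n = 3) in mutants, which gives a log2 fold change of -0.43 (95% interval -1.004 to 0.15, standard error 0.25, adjusted p = 0.461 by limma). Mutant 3 decided the size of this value. Leaving it out gave -0.10, and leaving out mutant 2 gave -0.62 with an unadjusted p of 0.0426. Mutant 3 was the library whose Mrps5 level matched the controls, and one of the libraries with a high erythroid share. With the erythroid level as a covariate the Igf2 value was -0.14, and with FPKM rescaled without erythroid and mitochondrial DNA genes it was -0.46. The part of the erythroid share in the Igf2 value was not tested further.

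The Igf2 total is a sum over 7 transcript rows, of which Igf2-204, Igf2-205 and Igf2-201 carried nearly all. These transcripts start at separate promoters along the gene and differ in their first exons. By GENCODE M21 they are 3970, 4722 and 3708 bases long and share 3596 bases, so that 374, 1126 and 112 bases, respectively, are found in no other of the 3. Igf2-205 starts 1816 bases and Igf2-201 starts 3809 bases downstream of Igf2-204. The sequences just upstream of the starts of Igf2-204 (chr7:142661306-142661521) and Igf2-201 (chr7:142657497-142657746) are shown because these rows held most of Igf2 in 5 of the 6 libraries. They are from RefSeq windows on GRCm38.p6, minus strand, with CG dinucleotides in capitals, the sites at which DNA methylation is placed and which were not assayed here.
Igf2-204 upstream: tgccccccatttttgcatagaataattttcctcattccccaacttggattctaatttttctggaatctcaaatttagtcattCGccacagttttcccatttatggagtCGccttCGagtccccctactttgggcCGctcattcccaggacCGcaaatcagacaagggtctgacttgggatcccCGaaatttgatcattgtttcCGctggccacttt
Igf2-201 upstream: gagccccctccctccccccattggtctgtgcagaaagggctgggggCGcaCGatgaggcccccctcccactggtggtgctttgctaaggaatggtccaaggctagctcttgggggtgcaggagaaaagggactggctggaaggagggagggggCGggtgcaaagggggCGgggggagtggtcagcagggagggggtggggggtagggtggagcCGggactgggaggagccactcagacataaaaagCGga
The first stretch, of 216 bases, holds 7 CG and has a GC content of 45.8%, and the second, of 250 bases, holds 6 CG and has a GC content of 66.0%.

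The rows did not split alike in all libraries. Igf2-204 was at 41.6, 779 and 839 FPKM in controls 1, 2 and 3 and at 737, 794 and 85.3 FPKM in mutants 1, 2 and 3. Igf2-201 was at 840, 15.8 and 22.9 FPKM in controls and at 16.6, 18.3 and 26.5 FPKM in mutants. Igf2-205 was at 148, 215 and 246 FPKM in controls and at 186, 205 and 383 FPKM in mutants. Thus 4 libraries had 75.5% to 78.1% of Igf2 on Igf2-204, control 1 had 81.1% on Igf2-201 and mutant 3 had 77.0% on Igf2-205. Control 1 moved between rows at an ordinary total, whereas in mutant 3 the total was low as well. FPKM multiplied by transcript length and summed over rows, an estimate of the relative number of fragments, was 52.9% of the control mean in mutant 3 and 91.2% and 98.8% in mutants 1 and 2. Read by the most abundant row alone, Igf2 gave a log2 difference of 0.29 rather than -0.43, so values of single rows are not used for Igf2 here. Whether the split reflects promoter use or the assignment of fragments among transcripts that share most of their bases was not tested.

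**Figure D2:**
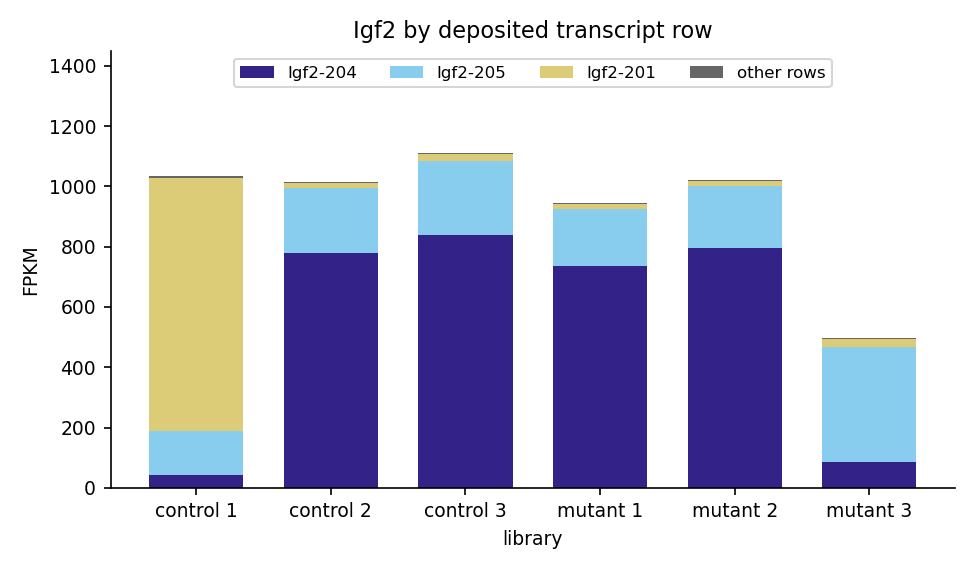
FPKM of Igf2 in each library, stacked by deposited transcript row. The totals of controls 1 to 3 and mutants 1 and 2 lie between 943 and 1112 FPKM and that of mutant 3 at 497, and the dominant row is Igf2-201 in control 1, Igf2-205 in mutant 3 and Igf2-204 in the other libraries.

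Igf2 and H19 share enhancers downstream of H19, and the methylation of a control region between the genes decides which of them is reached on each parental copy. The ratio of H19 to Igf2 was 2.86, 3.18 and 2.54 in controls 1, 2 and 3 and 3.16, 3.03 and 4.83 in mutants 1, 2 and 3. Mutants 1 and 2 lay within the control range and mutant 3 above it. The mean log2 ratio was 0.33 higher in mutants (p = 0.3 by an exact two-sided permutation test over the libraries, whose smallest possible p is 0.1), a design too small to reach 0.05. The standard deviation of the log2 ratio was 0.16 in controls and 0.37 in mutants (n = 3 each), and the difference was 0.12 without mutant 3. It was 0.13 with the erythroid level as a covariate and reversed to -0.38 with the most abundant transcript. Igf2os, an antisense RNA of the Igf2 gene that was picked after its values were seen, was at 10.4, 9.43 and 10.4 FPKM in controls 1, 2 and 3 and at 7.87, 8.81 and 9.29 FPKM in mutants 1, 2 and 3. Its groups did not overlap, with a log2 fold change of -0.20 (adjusted p = 0.366 by limma).

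Cdkn1c encodes p57, a maternally expressed inhibitor of cyclin-dependent kinases that restrains proliferation. It was at 439, 368 and 482 FPKM in controls 1, 2 and 3 and at 280, 324 and 429 FPKM in mutants 1, 2 and 3. Mutants 1 and 2 lay below every control and mutant 3 inside the control range, whereas for Igf2 mutant 3 was the lowest library. For Cdkn1c the log2 fold change was -0.33 (standard error 0.17, 95% interval -0.73 to 0.06, adjusted p = 0.402 by limma). It was -0.50 without the library labelled mutant 3, with an unadjusted p of 0.00844, and -0.20 without mutant 1. Part of the spread came from the short row Cdkn1c-205, which was at 161, 60.4 and 128 FPKM in controls and at 48.5, 56.9 and 149 FPKM in mutants. The main row, Cdkn1c-201, was at 210, 241 and 301 FPKM in controls 1, 2 and 3 and at 179, 209 and 215 FPKM in mutants 1, 2 and 3, so that mutants 2 and 3 reached the lowest control or nearly so.

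Kcnq1ot1, the paternally expressed antisense RNA that silences Cdkn1c and its neighbours on the paternal copy, had lower values in every mutant than in any control. It was at 21.2, 16.3 and 13.5 FPKM in controls 1, 2 and 3 and at 11.3, 11.2 and 9.10 FPKM in mutants 1, 2 and 3, without overlap. Its log2 fold change was -0.62 (standard error 0.16, unadjusted p = 0.00418, adjusted p = 0.165 by limma), and it ranged from -0.77 to -0.46 over the 14 alternative settings, under each of which the unadjusted p was below 0.05. Kcnq1, the potassium channel gene within which Kcnq1ot1 is transcribed in the opposite direction, was at 5.88, 3.34 and 3.82 FPKM in controls and at 2.62, 2.02 and 2.98 FPKM in mutants (log2 fold change -0.57, unadjusted p = 0.0148, adjusted p = 0.228 by limma), with a value of -0.38 without control 1. The libraries were made by a method that keeps strand, but how strand entered the values is not given in the sources used here, so reads of these overlapping genes may not be fully separated. The log2 fold changes of Kcnq1ot1 and Cdkn1c were both below 0, with an unadjusted p of 0.0863 by limma for Cdkn1c. The mean log2 ratio of Kcnq1ot1 to Cdkn1c differed by -0.29 (p = 0.5 by the exact permutation test). With one library left out the difference ranged from -0.52 without control 3 to -0.027 without the library labelled mutant 3. It was -0.48 without mutant 1 and -0.15 without control 1. This pair was added after the values were seen.

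Dlk1 encodes a paternally expressed transmembrane protein related to the Notch ligands, and Mirg is a noncoding RNA of the maternal copy of the same locus. Dlk1 was at 8.67, 11.7 and 5.33 FPKM in controls 1, 2 and 3 and at 11.0, 14.9 and 6.53 FPKM in mutants 1, 2 and 3. The groups overlapped, and the range within each group was wider than the difference between their means of 8.58 ± 3.20 (SD, n = 3) and 10.8 ± 4.19 FPKM (SD, n = 3). For Dlk1 the log2 fold change was 0.29 (95% interval -0.42 to 1.002, standard error 0.31, adjusted p = 0.699 by limma). It was 0.02 without control 3, 0.05 without mutant 2, 0.53 without control 2 and 0.58 without mutant 3. With the most abundant transcript it reversed to -0.18, and with the erythroid level as a covariate it was 0.59. Within each group the replicate numbers ranked alike, with number 2 highest and number 3 lowest. With a replicate block, a pairing that the labels do not give, the unadjusted p was 0.0131 by limma (adjusted p = 0.192). Dlk1 is also abundant in fetal liver, and the summed FPKM of 10 liver markers was 178, 372 and 35.3 in controls 1, 2 and 3 and 120, 228 and 174 in mutants 1, 2 and 3. None of the 9 that were tested had an unadjusted p under 0.05. In controls the sums ranked as Dlk1 did, whereas in mutants replicate 3 had more than replicate 1. Their part in the Dlk1 values was not tested. Dlk1 was spread over 9 transcript rows, and Dlk1-204 was listed at 0 in controls 1 and 3 and in mutant 1.

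Mirg was at 6.07, 5.01 and 4.63 FPKM in controls 1, 2 and 3 and at 5.58, 5.56 and 3.22 FPKM in mutants 1, 2 and 3. Mutants 1 and 2 lay within the control range and mutant 3 below it, as for H19. For Mirg the log2 fold change was -0.13 (standard error 0.18, 95% interval -0.55 to 0.29, adjusted p = 0.783 by limma), and 0.08 without mutant 3. The mean log2 ratio of Mirg to Dlk1 differed by -0.42 between mutants and controls (p = 0.3 by the exact permutation test, smallest possible 0.1). The difference was -0.68 without control 2, -0.23 without control 3 and -0.28 without mutant 2. With the most abundant transcript of each gene it reversed to 0.047. B830012L14Rik, a further noncoding RNA of this locus named after its values were seen, was at 4.37, 3.36 and 2.57 FPKM in controls and at 3.02, 3.62 and 1.75 FPKM in mutants, and its log2 ratio to Dlk1 differed by -0.53 (p = 0.2 by the same exact permutation test), and by -0.058 when the most abundant transcript of each gene was read.

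**Figure D3:**
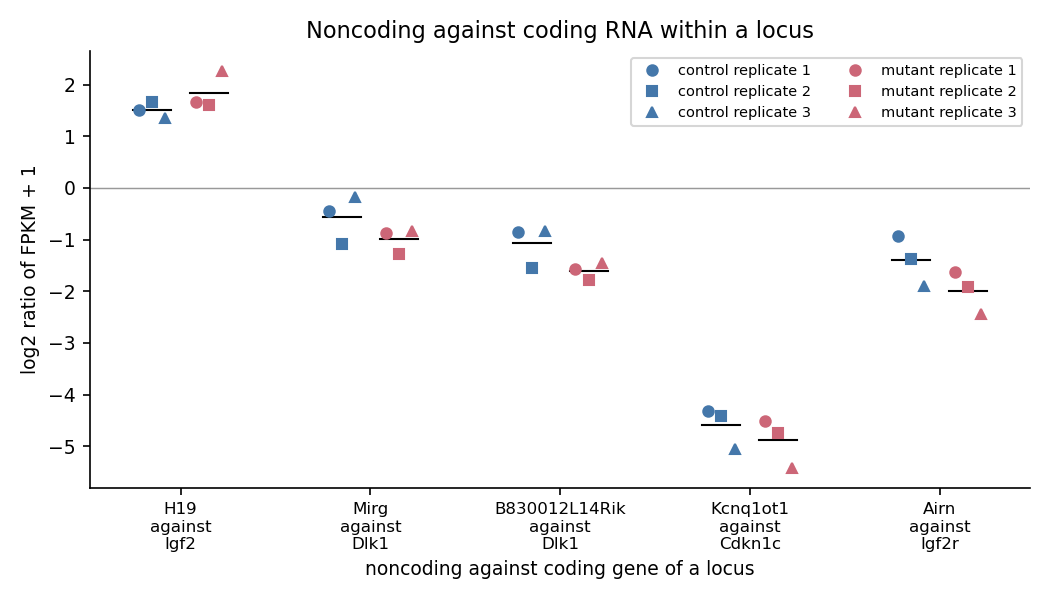
Log2 ratio of the noncoding to the coding RNA (FPKM + 1) for 5 pairs of genes from 4 loci, of which 2 share Dlk1, in each control (blue) and mutant (red) library, with black lines at the group means. The mean was higher in mutants by 0.33 for H19 against Igf2 and lower by between 0.29 and 0.60 for the other pairs, and the groups overlapped in each pair.

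Plagl1 encodes a paternally expressed zinc finger transcription factor, known as a regulator of other imprinted genes and active in the embryonic heart. It was at 153, 152 and 130 FPKM in controls 1, 2 and 3 and at 113, 116 and 127 FPKM in mutants 1, 2 and 3. All mutants lay below all controls, though mutant 3 was close to control 3. The means were 145 ± 13.1 (SD, n = 3) and 119 ± 7.05 FPKM (SD, n = 3), which gives a log2 fold change of -0.29 (95% interval -0.51 to -0.06, standard error 0.10, unadjusted p = 0.0181, adjusted p = 0.241 by limma). The direction held under all 14 alternatives, in which the value ranged from -0.36 to -0.23 and the adjusted p from 0.194 to 0.566. The unadjusted p was above 0.05 when control 1, control 2 or mutant 1 was left out and when only the most abundant row was read. That row, Plagl1-202, was at 101, 105 and 88.8 FPKM in controls 1, 2 and 3 and at 78.2, 80.2 and 92.3 FPKM in mutants 1, 2 and 3, so its groups overlapped, and the short row Plagl1-222 was at 25.1, 19.4 and 17.1 FPKM in controls and at 15.4, 12.4 and 9.09 FPKM in mutants. Cardiomyocyte marker sums were lower in every mutant library too, several smooth muscle markers were lower, and their part in the values of Plagl1, Cdkn1c and Kcnq1ot1 was not tested. Phactr2, a neighbour of Plagl1, was at 32.6, 31.9 and 32.3 FPKM in controls and at 21.6, 26.2 and 28.5 FPKM in mutants (log2 fold change -0.34, unadjusted p = 0.0120, adjusted p = 0.215 by limma).

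Grb10, an adaptor that binds the insulin and IGF1 receptors and limits their signal, was at 281, 303 and 333 FPKM in controls 1, 2 and 3 and at 284, 326 and 307 FPKM in mutants 1, 2 and 3. All mutants lay within the control range. The log2 fold change was 0.00 (standard error 0.10, 95% interval -0.24 to 0.24, adjusted p = 0.999 by limma). Nearly all of it was on one row, Grb10-201. Ddc, a decarboxylase gene beside Grb10 that is expressed from the paternal copy in the developing heart, was at 19.03, 11.9 and 16.6 FPKM in controls and at 8.20, 7.75 and 13.9 FPKM in mutants. Mutants 1 and 2 lay below every control and mutant 3 between controls (log2 fold change -0.64, standard error 0.23, unadjusted p = 0.0220, adjusted p = 0.259 by limma). Without the library labelled mutant 3 the Ddc value was -0.88 (adjusted p = 0.0492 by limma). The log2 ratio of Ddc to Grb10, a pair chosen after the values were seen, differed by -0.64 (p = 0.2 by the exact permutation test).

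Peg3, a paternally expressed zinc finger gene known for roles in growth and maternal care, was at 126, 144 and 132 FPKM in controls 1, 2 and 3 and at 142, 172 and 137 FPKM in mutants 1, 2 and 3. Mutant 2 exceeded every control and the others lay within their range. Its log2 fold change was 0.16 (standard error 0.11, 95% interval -0.09 to 0.41, adjusted p = 0.541 by limma), and the unadjusted p was 0.0315 with the erythroid level as a covariate, where the value was 0.30. Without mutant 2 it was 0.058. Of its listed neighbours, Zim1 differed by -0.06 and Usp29 by 0.16 (adjusted p = 0.848 and 0.736 by limma).

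**Figure D4:**
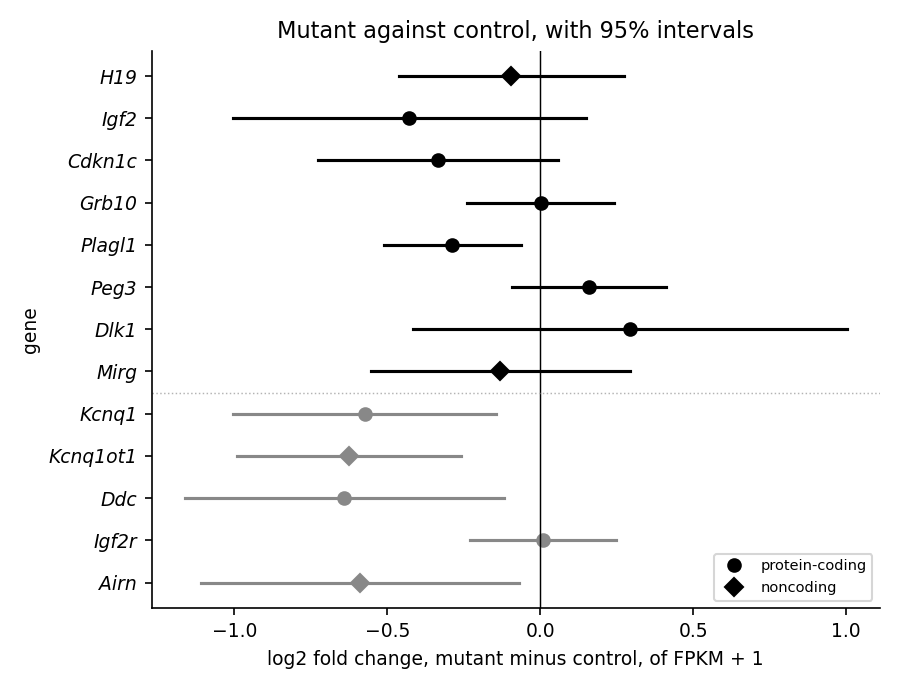
Log2 fold change of FPKM + 1, mutant minus control, with 95% intervals from limma, for the 8 members (black) and for 5 other imprinted genes of these or similar loci (grey), circles for protein-coding and diamonds for noncoding genes. Among the members the interval of Plagl1 (-0.51 to -0.06) leaves out 0, as do those of Kcnq1, Kcnq1ot1, Ddc and Airn, but none of these genes had an adjusted p under 0.05.

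By kind and by parental copy the members did not separate. The 6 coding members had 3 log2 fold changes above 0 (Grb10 at 0.00 among them) and 3 below, with a median of -0.14, and the 2 noncoding ones were both below 0, with a median of -0.11, though both signs turned without the library labelled mutant 3. The 4 paternally expressed members had a median of -0.06, with 2 above and 2 below 0, and the 4 maternally expressed ones a median of -0.11, with 1 above (Grb10, at 0.00) and 3 below. These are descriptions without a test. The noncoding members can be read beside other genes of their kind. Over the 1214 genes tested that the table labels as other than protein coding, the median log2 fold change was -0.25 and 29.2% were lower at an unadjusted p under 0.05, compared with -0.01 and 7.44% over 12046 protein-coding genes. H19 at -0.09 and Mirg at -0.13 lay above that median, and Kcnq1ot1 at -0.62 below it. Within the lincRNA label, which H19 carries, the median was -0.18 over 234 genes, and within the antisense label, which Kcnq1ot1 carries, -0.14 over 103 genes.

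**Figure D5:**
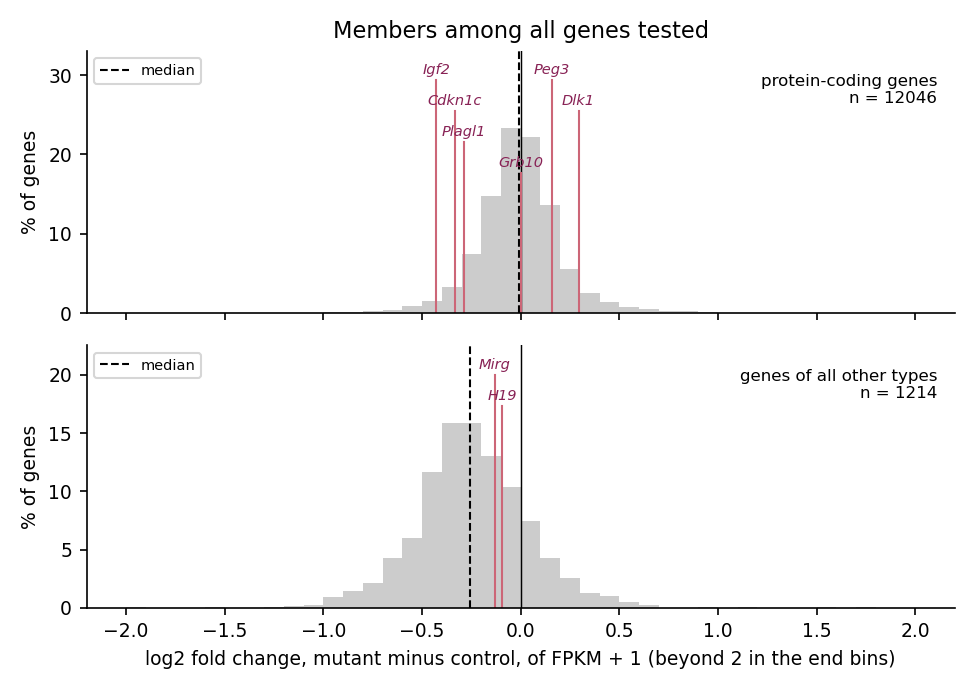
Share of genes (%) by log2 fold change of FPKM + 1, mutant minus control, for protein-coding genes (top, n = 12046) and all other types (bottom, n = 1214), with dashed lines at the medians of -0.01 and -0.25 and red lines at the members. The coding members lie on both sides of 0, and H19 and Mirg lie between 0 and the median of the noncoding genes.

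The other genes of the same loci were listed by position. Of 24 listed neighbours 14 passed the filter, and 5 of these (35.7%, beside 15.0% of all genes) had an unadjusted p under 0.05, with none at the adjusted threshold. Kcnq1, Kcnq1ot1, Ddc and Phactr2 were lower, and Mrpl23, a mitochondrial ribosomal protein gene downstream of H19, was higher at 38.8, 37.3 and 42.6 FPKM in mutants 1, 2 and 3 than at 32.9, 35.8 and 33.8 FPKM in controls 1, 2 and 3 (log2 fold change 0.20, adjusted p = 0.311 by limma). The remaining neighbours had log2 fold changes from -0.42 for Tnnt3 to 0.16 for Tssc4, among them Cd81 (-0.15), Nap1l4 (-0.08), Wdr25 (0.02), Cobl (-0.28) and Lsp1 (0.10).

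Of 42 imprinted genes listed from other loci 33 passed the filter and 3 (9.09%, beside 15.0% of all genes) had an unadjusted p under 0.05. Ano1, which encodes a calcium-activated chloride channel, was at 9.25, 10.5 and 7.45 FPKM in controls 1, 2 and 3 and at 12.3, 11.7 and 15.4 FPKM in mutants 1, 2 and 3 (log2 fold change 0.49, adjusted p = 0.190 by limma). Herc3 was at 14.4, 14.1 and 13.5 FPKM in controls and at 9.74, 8.74 and 13.2 FPKM in mutants (-0.39, adjusted p = 0.255 by limma), with the library labelled mutant 3 closest to the controls and a value of -0.55 without it (adjusted p = 0.0333 by limma). Airn, the antisense RNA that silences Igf2r on the paternal copy in many tissues, was at 139, 101 and 73.3 FPKM in controls and at 75.5, 74.2 and 53.1 FPKM in mutants (-0.59, adjusted p = 0.287 by limma), with a value of -0.36 without control 1. Its coding partner Igf2r, the receptor that clears IGF2, was at 265, 263 and 275 FPKM in controls and at 237, 283 and 291 FPKM in mutants, which overlapped (log2 fold change 0.01). The log2 ratio of Airn to Igf2r, added after the values were seen, differed by -0.60 (p = 0.2 by the exact permutation test), and by -0.36 without control 1 and -0.38 without the library labelled mutant 3. Most of the other genes had values closer to 0, and Mest, with the highest FPKM in this list, differed by 0.13 (adjusted p = 0.655).

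The pathway in which Igf2 and Grb10 act was followed through lists of its parts, in which no gene passed an adjusted p of 0.05 without a covariate and with all 6 libraries. Besides Igf2, the ligand Igf1 and the receptors Igf1r, Insr and Igf2r were tested, and 0 of these 5 genes had an unadjusted p under 0.05. Igf1 was at 21.2, 22.3 and 24.9 FPKM in controls 1, 2 and 3 and at 21.5, 24.9 and 15.1 FPKM in mutants 1, 2 and 3, so that mutant 3 was lowest for this ligand as well. Among 9 tested IGF-binding proteins and genes that act on them, 3 were higher at an unadjusted p under 0.05 and none lower, beside 5.57% higher among all genes. Stc2, a secreted inhibitor of the protease that frees IGF from its binding protein, was at 1.69, 1.41 and 2.03 FPKM in controls and at 9.15, 7.57 and 2.99 FPKM in mutants (log2 fold change 1.38, unadjusted p = 0.00199, adjusted p = 0.142 by limma), and without the library labelled mutant 3 its value was 1.79 (adjusted p = 0.000823 by limma). Igfbp3, a carrier of IGF, and Htra1, a secreted protease, differed by 0.34 and 0.68 (adjusted p = 0.262 and 0.263), and Htra1 passed the adjusted threshold with the erythroid level as a covariate (adjusted p = 0.0351). Mutant 2 was highest for Htra1, at 17.7 FPKM beside 8.17 and 9.02 FPKM in the other mutants, and without it the value was 0.36. Of 5 tested IGF2 mRNA-binding and Lin28 genes, none had an unadjusted p under 0.05.

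Of 25 tested genes of the signal transduction downstream of the receptors, 2 were higher and 3 lower at an unadjusted p under 0.05, which is 20.0% beside 15.0% of all genes. Grb14, an adaptor of the same family as Grb10, was at 15.8, 16.02 and 17.4 FPKM in controls 1, 2 and 3 and at 8.29, 8.27 and 13.98 FPKM in mutants 1, 2 and 3 (log2 fold change -0.67, adjusted p = 0.169 by limma), and without the library labelled mutant 3 its value was -0.91 (adjusted p = 0.0028). The receptor substrate gene Irs2 and the kinase subunit gene Pik3cb differed by 0.41 each (adjusted p = 0.190 and 0.172), and Irs2 had an adjusted p of 0.0464 without mutant 2 but a value of 0.21 and an unadjusted p of 0.0591 with the erythroid level as a covariate. Of 15 tested cyclin-dependent kinase inhibitors and G1 cyclins, the p21 gene Cdkn1a alone had an unadjusted p under 0.05 (6.67% of the list). It was at 6.32, 7.08 and 7.70 FPKM in controls and at 19.5, 18.4 and 7.82 FPKM in mutants (0.92, adjusted p = 0.216 by limma). Without the library labelled mutant 3 its value was 1.31 (adjusted p = 0.000852 by limma). Thus p21 was higher in the same mutants 1 and 2 in which Cdkn1c was below the controls. Stc2, Grb14 and Cdkn1a shared with Cdkn1c that the library labelled mutant 3 lay nearest to the controls.

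Dlk1 is related to the Notch ligands, and of 12 tested Notch ligands, receptors and targets 3 (25.0%, beside 9.43% of all genes) were lower at an unadjusted p under 0.05. They were the ligand genes Jag1 and Dll1 and the target gene Hey2, with log2 fold changes of -0.38, -0.47 and -0.41 (adjusted p = 0.153, 0.231 and 0.170 by limma). Of 16 tested genes that set or keep imprints, the methyltransferase gene Dnmt3a and the methylcytosine dioxygenase gene Tet1 were lower at an unadjusted p under 0.05, with values of -0.37 and -0.34 (adjusted p = 0.296 and 0.239), but Dnmt3a was at -0.22 without the library labelled mutant 3 and at -0.073 by its most abundant transcript, and Tet1 at -0.20 with the erythroid covariate. They are 12.5% of the list beside 15.0% of all genes. Both showed no overlap between the groups, as 20.8% of all genes did, and so did Dnmt3b, named for that reason, at 0.21 (adjusted p = 0.434).

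The genes whose log2 values tracked a member most closely over the 6 libraries were mostly not imprinted. They were Gstz1 for Igf2 (Pearson r = 0.992), Nucb2 for H19 (0.993), Gatsl2 for Cdkn1c (0.998), Nudt6 for Dlk1 (0.994), BC067074 for Mirg (0.992), Rfxap for Grb10 (0.985), Wdr75 for Peg3 (0.996) and Nav2 for Plagl1 (0.992). With 6 libraries, between 96 and 281 genes had a correlation above 0.9 with each member, so such values are common. Among the listed imprinted genes, the closest to H19 and to Mirg was Igf2 (r = 0.850 and 0.849), with mutant 3 the lowest library for all 3 genes. The closest to Cdkn1c was Gab1 (0.976), to Peg3 Peg10 (0.969), to Dlk1 Inpp5f (0.905), to Igf2 Snhg14 (0.855), to Plagl1 Snrpn (0.854) and to Grb10 Ndn (0.848). These values describe 6 libraries that fall into 2 groups and differ in erythroid share, and carry no test.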

How the data were processed

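RNA of whole hearts was depleted of ribosomal RNA and sequenced as strand-specific libraries, 3 control and 3 mutant. The methods text of the study instead describes poly-T selection of mRNA from ventricles of adult mice. It names no strand-specific step and does not describe the embryonic libraries separately. The authors deposited 1 table of FPKM per transcript. The submitters' processing notes name Bowtie2 2.2.8, HISAT2, StringTie 1.3.1, Cuffdiff 2.1.1 and the build mm9. The annotation release is not given in the sources used here. The values hold no read counts, so library depth is unknown and no counting interval is given. FPKM summed to 454692 to 515952 per library.

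FPKM was summed over the 60776 transcript rows to 26191 genes, and log2(FPKM + 1) of genes at 1 FPKM or more in at least 3 libraries was compared with limma 3.58.1 (R 4.3.3, eBayes with trend, no covariate) with Benjamini-Hochberg adjustment over 13260 genes. Ratios within a locus were compared by exact two-sided permutation tests over libraries. The members and gene lists were chosen with earlier results of these data known. Named genes were the members, Mrps5, their tested neighbours and the closest genes by correlation. Up to 3 genes of each list with the smallest unadjusted p under 0.05 could also be named, and not all of them are. Genes named outside this rule are said to be chosen after their values were seen. Exceptions are Igf1, Igf1r, Insr, Igf2r and Mest, named for their place in a list. The limma p-values weigh a group difference against the spread between these pools, with variances moderated over all genes. The exact tests rank the observed grouping of the libraries among all groupings. Alternatives were a pseudocount of 0.1, no filter, a mean FPKM of at least 5, each replicate left out, a replicate block, the most abundant transcript, rescaling without erythroid and mitochondrial DNA genes, upper-quartile scaling and the erythroid level as a covariate. Transcript lengths were taken from GENCODE M21 on GRCm38, and no coordinates were converted from mm9.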

Additional observations from a re-analysis of the deposited data

How the results depend on the processing

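None of the 8 members passed an adjusted p of 0.05 under any of the 14 alternatives. All genes at that threshold numbered 11, and 6 without a filter, 4 with the replicate block, 4 with the most abundant transcript, 6 with the erythroid level as a covariate, and 5 to 270 with one library left out, with 121 without mutant 2 and 270 without the library labelled mutant 3. Genes at an unadjusted p under 0.05 numbered 1990, and 1314 at a mean FPKM of at least 5 and 1216 to 2167 with one library left out. Members under that line numbered 1 of 8, and 3 with the block (Cdkn1c, Dlk1 and Plagl1). They numbered 0 with the most abundant transcript, 2 with the erythroid covariate and 0 to 2 with one library left out. All genes under it numbered 2221 of 13260 with the block and 1577 of 12906 with the most abundant transcript. With the erythroid covariate they numbered 1406 of 13260. Listed imprinted genes of other loci numbered 3, and 1 to 4 with one library left out. After rescaling they numbered 6, beside 2060 of 13260 genes. The rescaling moved the split of all genes to 545 higher and 1515 lower from 739 and 1251, and the erythroid covariate moved it to 721 and 685. With the most abundant transcript the ratio of H19 to Igf2 reversed to -0.38 and that of Mirg to Dlk1 to 0.047, and the single genes Igf2 and Dlk1 reversed to 0.29 and -0.18, since their dominant row changes between libraries. With the erythroid covariate the ratio of H19 to Igf2 was 0.13, and Dlk1 was 0.59 and H19 -0.0067. Ano1 was 2.16 with the most abundant transcript. Mirg reversed to 0.014 with the erythroid covariate, and Grb10, at 0.00, to -0.032 after rescaling and to -0.0023 with upper-quartile scaling. With one library left out H19 ranged from -0.16 to 0.018, Mirg from -0.24 to 0.081 and Grb10 from -0.058 to 0.065. The replicate numbers did not pair the libraries by the labels. Deviations from the group means correlated at 0.217, 0.110 and 0.0901 for same-numbered libraries, and every library correlated best with its own number, which is a hint from the data only. With that block the unadjusted p was 0.0360 for Cdkn1c and 0.0131 for Dlk1. Comparisons of Meg3 and Rian with Dlk1 were not run, and B830012L14Rik was not tested at a mean FPKM of at least 5. Depth is unknown, and 3 pools a group limit the exact tests to p = 0.1. Without read counts the precision of low FPKM values, such as those of Dlk1 and Mirg, cannot be given.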
